A study of Rattus norvegicus with 120 samples.

Results

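The nuclear genes for the subunits of the mitochondrial respiratory chain and of ATP synthase were followed in the eyes of 120 adult rats. Members were all probe sets annotated to a single symbol beginning with Nduf, Uqcr, Sdh followed by a, b, c or d, Cox4 to Cox8, or Atp5. The rule found 90 of the 14217 genes named on the array, which holds 31099 probe sets, and the probe set of highest mean stood for each gene. Of these, 89 had a mean at or above 4.28 on the log2 scale, the 25th percentile of all values, which 12326 genes in all reached. Cox7b2 alone lay below it, with a mean of 3.23, and Cox6b2 lay just above, at 4.44. The members were 34 subunits of complex I, 4 of complex II, 7 of complex III, 10 of complex IV, 6 tissue isoforms of complex IV subunits, 15 subunits of complex V, 10 assembly factors that share a prefix with subunits, and 4 others. Another 7 probe sets matched several symbols and were no members; they included those of Cox7a2, Atp5mc1, Atp5mc2, Uqcrb, Ndufs5 and Ndufa10, and the brighter one of Cox5a. Cox5a was therefore read from a dim probe set, with a mean of 5.24.

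All animals were 12-week-old males of the F2 generation of an intercross between the inbred rat strains SR/JrHsd and SHRSP (SHRSP rats are hypertensive and prone to stroke). Both eyes of a rat gave the RNA for 1 Affymetrix array, without a replicate, the labels put all animals in 1 group, and genotypes were not used here. Measurement error is therefore part of every spread between animals given here, and the number of arrays limits the precision. Sample titles carry an S code (10 codes of 11 to 13 arrays) and an L code (22 codes of 2 to 11 arrays) that the labels do not explain. For S codes 1 to 5 the titles add a date, the same for all arrays of a code, and what was done on it is not stated.

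The respiratory chain passes electrons from NADH through complex I, or from succinate through complex II, to complex III and then, through cytochrome c, to complex IV, where oxygen is reduced. The proton gradient that complexes I, III and IV build drives complex V, the ATP synthase. Most subunits are encoded in the nucleus, and several subunits of complex IV exist as a widely expressed form and a second form found mainly in heart and skeletal muscle. Photoreceptors are among the cells richest in mitochondria, and whole eyes can also carry extraocular skeletal muscle.

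The results turn on 3 muscle-type isoforms of complex IV, Cox6a2, Cox8b and Cox7a1, so their promoters are shown with that of Cox8a, the widely expressed counterpart of Cox8b. Each stretch runs from 250 bases before to 30 bases after the transcript start, as RefSeq gives it for build GRCr8. All 4 lie on chromosome 1, at chr1:192219687-192219966 on the minus strand (Cox6a2), chr1:205408244-205408523 on the minus strand (Cox8b), chr1:94568966-94569245 on the plus strand (Cox7a1) and chr1:213833594-213833873 on the minus strand (Cox8a). Capitals mark matches, on either strand, to the motifs named after the sequences. Cox6a1, the counterpart of Cox6a2, was not in the promoter table.
Cox6a2: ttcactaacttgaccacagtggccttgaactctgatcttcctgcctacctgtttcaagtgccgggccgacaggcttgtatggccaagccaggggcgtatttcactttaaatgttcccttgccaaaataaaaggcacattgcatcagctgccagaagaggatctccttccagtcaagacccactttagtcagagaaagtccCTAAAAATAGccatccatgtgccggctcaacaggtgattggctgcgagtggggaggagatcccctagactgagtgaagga
Cox8b: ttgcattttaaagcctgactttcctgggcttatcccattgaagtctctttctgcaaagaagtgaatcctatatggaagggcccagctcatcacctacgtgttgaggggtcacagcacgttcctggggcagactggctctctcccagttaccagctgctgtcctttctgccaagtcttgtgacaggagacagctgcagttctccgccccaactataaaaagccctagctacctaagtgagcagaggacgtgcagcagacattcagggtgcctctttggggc
Cox7a1: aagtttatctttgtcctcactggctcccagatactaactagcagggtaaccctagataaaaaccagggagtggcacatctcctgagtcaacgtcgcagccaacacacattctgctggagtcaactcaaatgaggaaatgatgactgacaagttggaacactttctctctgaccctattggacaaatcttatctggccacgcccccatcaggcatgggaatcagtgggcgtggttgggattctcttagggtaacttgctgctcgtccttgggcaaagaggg
Cox8a: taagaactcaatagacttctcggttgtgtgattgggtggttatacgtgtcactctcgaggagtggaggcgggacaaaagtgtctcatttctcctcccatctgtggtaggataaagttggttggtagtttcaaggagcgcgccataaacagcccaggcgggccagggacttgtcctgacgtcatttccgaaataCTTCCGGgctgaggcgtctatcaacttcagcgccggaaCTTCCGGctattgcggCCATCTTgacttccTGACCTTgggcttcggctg

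The motifs searched were the cores GCGCANGC (NRF1), CCGGAAG (ETS factors, the family of GABPA), AAGGTCA (estrogen-related receptors) and AAGATGG (YY1), and the MEF2 motif of muscle genes. All were looked for on both strands of windows of 300 bases, from 250 before to 50 after the start, and matches may overlap. Of the 89 members above the filter, 81 had such a window. The NRF1 core was in 24 of these (29.6%), the ETS core in 25 (30.9%), the estrogen-related receptor core in 11 (13.6%) and the YY1 core in 20 (24.7%). Over the 10192 tested genes with a window the shares were 18.2%, 16.5%, 2.94% and 8.14%, and over all 27457 windows they were 9.67%, 9.22%, 4.37% and 7.3%. All 11 members with the estrogen-related receptor core were among the 64 subunits of complexes I to V (17.2%). The 4 tissue isoforms with a window held none of these cores. Cox6a2 was the only member with a MEF2 match, which begins 50 bases before the start and reads as the motif on both strands, against 160 of the tested genes (1.57%). Cox8a held the ETS core at 2 places, the YY1 core and the estrogen-related receptor core. A match is a description of letters in this window and says nothing of binding.

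Most respiratory chain genes varied little from animal to animal, and the tissue isoforms of complex IV varied most. With S code means removed, the median SD over the 120 animals was 0.10 (log2) for the 89 members, against 0.15 over all 12326 genes and 0.12 over the 1485 genes whose mean lay between the members' quartiles, 9.03 and 10.69. The lowest and highest animal stood at least 2-fold apart for 10 of the 89 members (11.2%). The share was 45.3% over all genes and 22.8% over those 1485 genes of like level. By class the median SD was 0.101 in complex I, 0.110 in complex II, 0.0915 in complex III, 0.0843 in complex IV and 0.0828 in complex V. It was 0.138 in the assembly factors and 0.202 in the 5 tissue isoforms.

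The smallest SD belonged to Cox4i1, the widely expressed form of the largest nuclear-encoded subunit of complex IV. Its log2 level ran from 11.59 in the lowest animal through a median of 11.80 to 11.92 in the highest (SD 0.061), a range of 1.26-fold. Atp5pd, a subunit of the peripheral stalk of ATP synthase (SD 0.064), Ndufb4 (SD 0.0655) and Ndufb11 (SD 0.0685), both accessory subunits of complex I, followed. Animal 63 had the lowest value for all 4 of these genes.

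At the other end stood Cox7a1, the muscle-type form of subunit VIIa, with an SD of 0.376, above that of 98.1% of all genes. Its levels went from 5.54 through a median of 6.53 to 7.51, a range of 3.93-fold, and from the 6th lowest to the 6th highest animal they still differed 2.50-fold. Cox8b, the muscle-type form of subunit VIII, ranged from 8.39 through 9.017 to 9.69 (SD 0.228). Ndufa4l2, a paralog of Ndufa4 that responds to low oxygen, ranged from 5.80 through 6.51 to 7.01 (SD 0.211). Sdhaf3, an assembly factor of complex II, ranged from 5.997 through 6.86 to 7.64 (SD 0.205), with animal 63 lowest, and Cox6a2, the muscle-type form of subunit VIa, from 8.83 through 9.48 to 9.87 (SD 0.202).

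**Figure D1:**
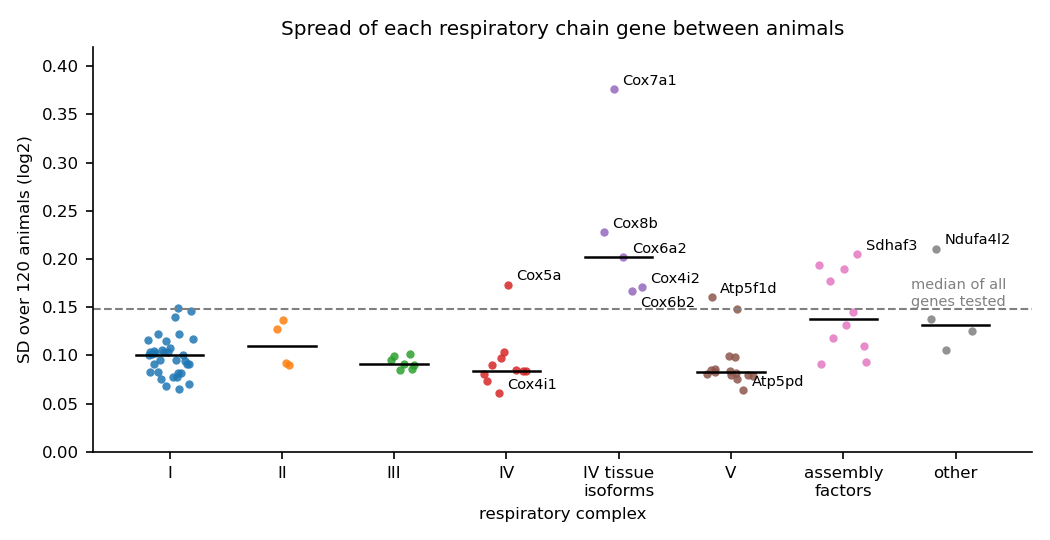
SD over 120 animals of each of the 89 genes (vertical axis, log2 scale, S code means removed) by respiratory complex (horizontal axis); points are genes, black bars class medians and the dashed line the median over all genes tested, 0.15. Cox7a1 stands apart at 0.376, and most subunits of complexes I to V lie below the dashed line.

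A single array weighed on many of these values. The array of animal 63, 1 of the 3 arrays that the titles mark as scanned again, held the lowest value of 61 of the 89 members and the highest of none. The array of animal 15 held the highest value of 21 members and the lowest of 6. Without animal 63 the median SD of the members was 0.090, against 0.139 over all genes.

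Nearly every member differed between S codes, as did nearly every gene on the array. By limma's moderated F test with Benjamini-Hochberg adjustment over all 23326 probe sets tested, 87 of the 89 members passed, against 92.8% of all genes. The S code took a median of 36.6% of a member's variance, and the highest and lowest code means differed by a median of 1.18-fold. Uqcrc2, a core protein of complex III, had the largest statistic: its mean was 10.18 in S code 4 and 10.66 in S code 10, and the code took 76.1% of its variance. Cox4i2, the form of subunit IV found mainly in lung and in vessel-associated cells, had the largest fold, 1.78, from 6.53 in S code 10 to 7.37 in S code 7. By the statistic, Uqcrc2 and Cox4i2 were followed by Ndufv3 of complex I, Atp5if1, the inhibitor of ATP synthase, Ndufs8 of complex I, Cox5a, and Ndufa8 and Ndufa3 of complex I. By fold, Cox4i2 was followed by Cox5a (1.58), Ndufaf1 (1.51) and Atp5f1d (1.46). S codes 6 and 10 each held the highest mean of 26 members, and S code 4 the lowest of 26.

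The 2 members that did not pass were muscle-type isoforms. Cox7a1 had code means between 6.40 and 6.62, with 3.31% of its variance between codes (adjusted p = 0.917), and Cox8b means between 8.84 and 9.14 (adjusted p = 0.0569). Cox7a1, the member with the largest SD between animals, had the smallest share of variance between S codes. Its code means differed 1.17-fold, near the members' median of 1.18-fold, so the small share goes with its large SD.

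No member passed limma's test over the 22 L codes with the S code as covariate, against 5.35% of all genes, and 7 of 89 had an unadjusted p under 0.05. Ndufa1, an accessory subunit of complex I, had the smallest adjusted p (0.112). In simulated arrays with the same codes, this test called 52% of 50 genes given an L code effect of 0.6 times their residual SD and none of 50 at 0.3 times. The test can thus miss smaller L code differences. Fewer genes carried an L code effect in the simulation than passed in the real data, which makes the adjustment stricter. Its rates therefore need not hold for the real arrays. Without removal of S code means, 5 members passed it, and the share of all genes under that setting is not given here.

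More than 1 in 2 members rose along a score of skeletal muscle marker mRNAs, and none fell. A score was made for each animal from 25 skeletal muscle markers, among them Ckm, Acta1, Tnnt3 and Atp2a1, all of which lay above the filter with means between 5.69 and 12.07. In limma, with the S code as covariate, 49 of the 89 members rose with the score, against 23.5% of all genes, and 0 fell, against 2.94%. The median slope was 0.026 (log2 per SD of the score) over the members and 0.019 over all genes, and 86 of 89 slopes were positive. In whole eyes, more muscle in a sample and more RNA per muscle cell cannot be told apart.

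The muscle-type isoforms Cox6a2 and Cox8b had by far the steepest slopes of the members. Cox6a2 (probe set 1367782_at) rose by 0.173 ± 0.010 (SE, n = 120) per SD of the score (adjusted p = 6.19e-30, limma). In the 5 animals of lowest score its levels lay between 8.83 and 9.14, and in the 5 of highest score between 9.59 and 9.84, with no overlap. Cox8b (probe set 1367739_at) rose by 0.184 ± 0.013 (adjusted p = 6.08e-24, limma), from between 8.39 and 8.75 in the 5 animals of lowest score to between 9.24 and 9.41 in the 5 of highest, again with no overlap. Cox6a2 and Cox8b correlated with each other at r = 0.82 (rho = 0.82, p = 1e-05 for each, the smallest that 100000 permutations within S codes can give, adjusted p = 1.14e-05 and 1.33e-05 over 16 pairs). Their r was 0.81 without the 2 animals farthest from the median and between 0.66 and 0.95 within the 10 S codes. All but the muscle-type pairs among the 16 were picked for a high or low r in these data. The adjusted values thus add little to the unadjusted p.

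Their widely expressed counterparts had smaller slopes, which missed the threshold here. Cox6a1 had a slope of 0.014 ± 0.007 (adjusted p = 0.125, limma) and lay between 10.29 and 10.62 in the 5 animals of lowest score and between 10.46 and 10.58 in the 5 of highest. Cox8a had a slope of 0.015 ± 0.008 (adjusted p = 0.152, limma). With the rod score in the same model, Cox6a1 passed (slope 0.020, adjusted p = 0.0392, limma) and Cox8a did not (adjusted p = 0.188, limma). The difference between the forms was tested directly, in both pairs in which each form had a probe set of its own. Cox6a2 minus Cox6a1 rose by 0.159 per SD of the score (r = 0.80, rho = 0.79, p = 1e-05 for each by permutation, adjusted p = 1e-05 over 2 pairs), and r was 0.79 without the 2 animals farthest from the median score. Cox8b minus Cox8a rose by 0.168 (r = 0.76, rho = 0.76, p = 1e-05 for each by permutation, adjusted p = 1e-05), and r was likewise 0.76 without the 2 farthest animals. Both relations were positive in all 10 S codes, with r within codes between 0.68 and 0.90 for the first pair and between 0.61 and 0.88 for the second.

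Cox7a1 (probe set 1374698_at), the third muscle-type isoform, did not go with them. Its slope on the score was -0.031 ± 0.035 (adjusted p = 0.506, limma). It lay between 6.21 and 6.93 in the 5 animals of lowest score and between 5.54 and 6.91 in the 5 of highest, which overlap over most of their range. Its correlation was -0.01 with Cox6a2 (rho = 0.02, p = 0.885 and 0.828 by permutation) and -0.03 with Cox8b (rho = -0.02, p = 0.701 and 0.856 by permutation). Without the 2 farthest animals r was -0.05 and 0.01. Among the other tissue isoforms, Cox4i2 had a slope of 0.000 ± 0.016 (adjusted p = 0.995, limma) and Cox6b2, a form known from testis, one of 0.003 ± 0.016 (adjusted p = 0.899, limma).

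**Figure D2:**
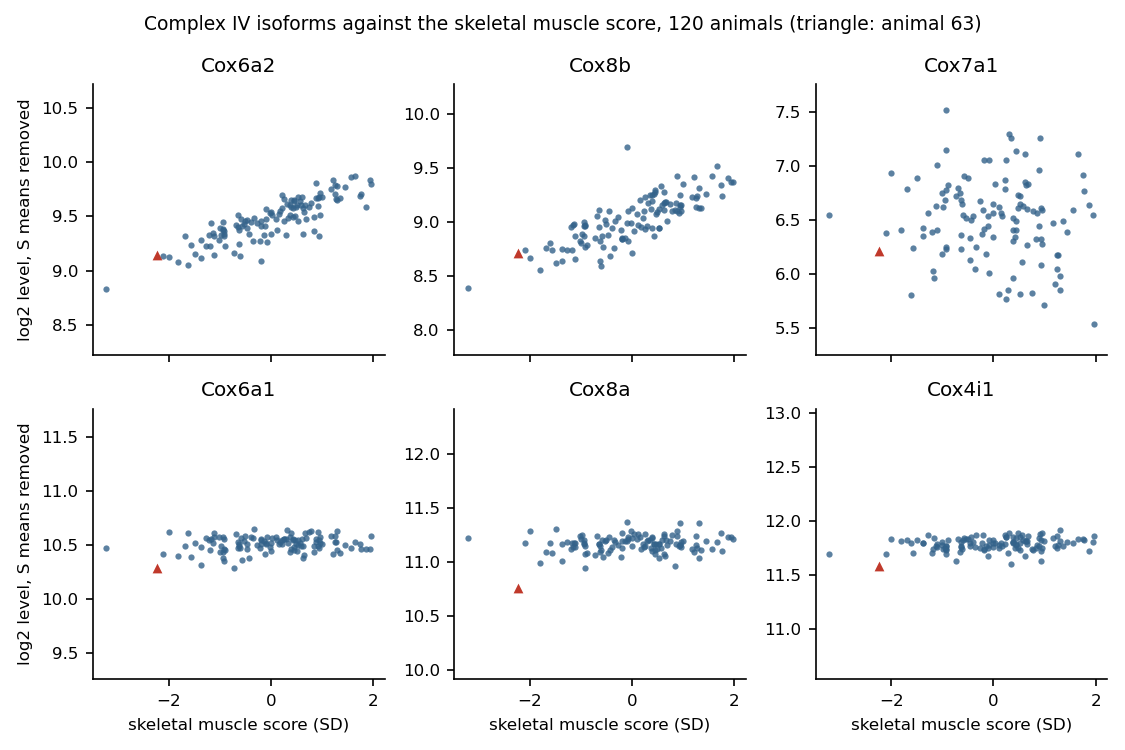
Log2 level, with S code means removed, of 6 complex IV genes (vertical axes, all of one height) against the skeletal muscle score in SD (horizontal axes); each point is 1 of 120 animals and the triangle animal 63. Cox6a2 and Cox8b climb with the score, Cox7a1 scatters over 5.54 to 7.51 without a trend, and Cox6a1, Cox8a and Cox4i1 show no such climb.

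Ndufaf1, an assembly factor of complex I, came next with a slope of 0.068 (adjusted p = 0.00274, limma). It was read from a dim probe set, with a mean of 4.95. The rest of the chain followed the score with smaller slopes, and unevenly between complexes. All 7 subunits of complex III rose, as did 21 of 34 of complex I, 2 of 4 of complex II, 9 of 15 of complex V and 5 of 10 assembly factors, but 3 of 10 of the widely expressed subunits of complex IV. The difference between complexes was not tested. The count for complex IV reads Cox5a from its dim probe set. Probe sets matching several symbols were not counted. Among them, the brighter one of Cox5a (mean 10.92) had r = 0.55 with the score, and that of Cox7a2 r = 0.33. The rest, of other complexes, lay between 0.08 (Atp5mc2) and 0.28 (Ndufa10). Uqcrfs1, the Rieske iron-sulfur protein of complex III, had a slope of 0.059 ± 0.008 (adjusted p = 1.04e-08, limma), from between 10.30 and 10.64 in the 5 animals of lowest score to between 10.80 and 10.87 in the 5 of highest. Uqcrc1, a core protein of complex III, had a slope of 0.051 (adjusted p = 5.93e-08, limma), and Ndufs3, a core subunit of complex I, one of 0.057 (adjusted p = 9.17e-08, limma). They were followed by Sdhd, a membrane anchor of complex II (0.047), Ndufab1, the mitochondrial acyl carrier protein (0.049), and Atp5mc3, a gene for the c subunit of the ATP synthase ring (0.039).

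Cox5b, Cox6b1 and Cox7b were the subunits of complex IV that rose, with 0.039 for Cox6b1 (adjusted p = 2.4e-05, limma) and 0.032 for Cox7b (adjusted p = 0.0132, limma). Cox4i1 had a slope of 0.015 ± 0.006 (adjusted p = 0.0579, limma); it passed with the rod score in the same model (adjusted p = 0.00514) and with the 3' to 5' differences as covariates (adjusted p = 0.0297), and had an adjusted p of 0.199 without animal 63. Ndufa4, now counted as a subunit of complex IV, had a slope of 0.009 ± 0.010 (adjusted p = 0.490, limma). Ndufa4l2 had a slope of 0.006 ± 0.020 (adjusted p = 0.822, limma) and Cox7a2l, a factor that joins complexes III and IV, one of 0.011 ± 0.012 (adjusted p = 0.502, limma). Sdhb and Sdhc, the iron-sulfur subunit and a membrane anchor of complex II, did not pass either, while Sdha and Sdhd did.

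**Figure D3:**
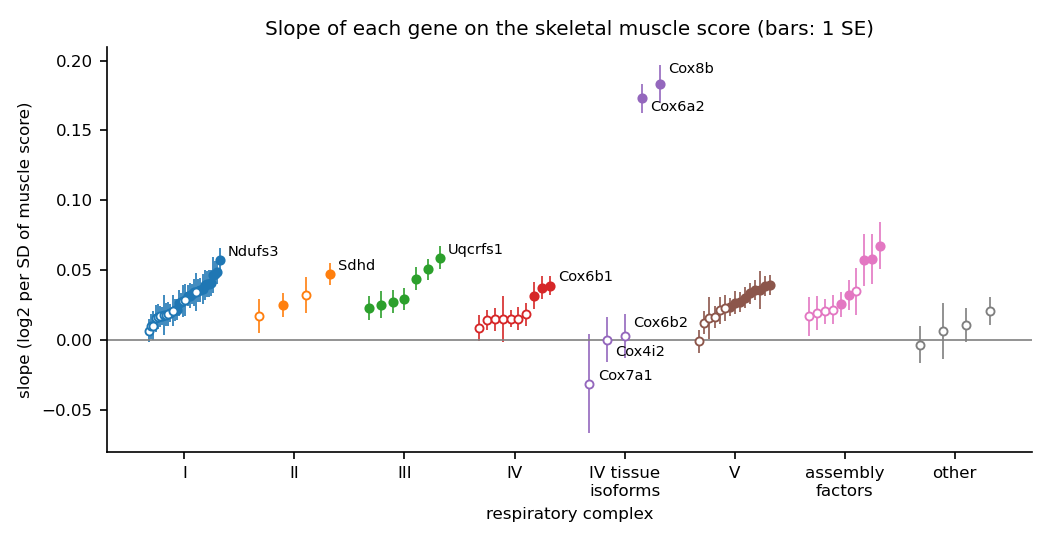
Slope of each of the 89 genes on the skeletal muscle score (vertical axis, log2 per SD of the score, bars 1 SE) by respiratory complex (horizontal axis); filled points passed limma at an adjusted p of 0.05. Cox8b and Cox6a2 lie at 0.184 and 0.173, and every other gene lies below 0.07.

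The count of 49 leaned on a single array. Without animal 63, whose score was -2.23, 31 of the 89 members rose, against 9.41% of all genes, and all 31 were among the 49. Complex III then had 4 of 7, complex I 14 of 34, complex II 1 of 4, complex IV 2 of 10, complex V 7 of 15 and the assembly factors 1 of 10. The 3' to 5' differences of the actin and GAPDH control transcripts track RNA integrity and labelling. With them as covariates, 36 rose, and 31 of these were among the 49. The 36 held 14 of 34 in complex I, 4 of 7 in complex III and 1 of 10 assembly factors. The share of all genes under that setting is not given here. Under every alternative that was run, 26 of the 49 were called, among them Cox6a2, Cox8b, Uqcrfs1, Uqcrc1, Ndufs3, Sdhd, Ndufab1, Atp5mc3 and Cox6b1. How many of all genes kept their call under every alternative is not given here, so this count cannot be set against a background.

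Other mitochondrial genes were read on the same score, along which 23.5% of all genes rose. Of 32 genes for the tricarboxylic acid cycle and electron carriers, 25 rose and 0 fell, led by Idh2, the mitochondrial NADP-dependent isocitrate dehydrogenase (slope 0.068), and Pdha1, a subunit of pyruvate dehydrogenase (0.056). Of 30 assembly factors with other names, 11 rose and 0 fell, led by Ecsit, which takes part in complex I assembly (0.055), and Coa5, which takes part in complex IV assembly (0.042). Of 21 regulators of mitochondrial biogenesis, 3 rose: Nrip1, a co-repressor of oxidative genes (0.054), Tfb2m, a mitochondrial transcription factor (0.044), and Tfam, the mitochondrial DNA packaging and transcription factor (0.028); this share lay below that of all genes. Without animal 63, where 9.41% of all genes rose, the counts were 19 of 32, 4 of 30 and 0 of 21.

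Along a score from 17 rod photoreceptor markers, the members divided. In limma 10 of 89 rose with the score and 11 fell, against 10.5% and 14.5% of all genes, so both shares were near the background. Atp5f1a, the alpha subunit of ATP synthase, had the largest statistic, with a slope of 0.035 ± 0.008 (adjusted p = 5.46e-04). Sdhb (0.049), Sdhc (0.046), Cox4i1 (0.022) and Ndufa13 (0.034), a complex I subunit, also rose. Cox5a (-0.061), Uqcr10, a small subunit of complex III (-0.028), and Cox8b (-0.068) fell. The rod score itself correlated at -0.25 with the muscle score and at -0.31 with the actin 3' to 5' difference over the 120 animals. These counts were not stable. Without animals 63 and 15 they were 7 and 30, and with the muscle score in the same model 15 and 3. The shares of all genes under these settings are not given here, so these counts cannot be set against the background. Of the 11 that fell, 3 fell with the muscle score in the same model and 0 with the 3' to 5' differences as covariates, whereas Atp5f1a and Cox4i1 rose under every alternative run.

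Scores of smooth muscle and of fat touched few members. Cox6b2 was the only member that followed the score of 12 smooth muscle and pericyte markers (slope 0.079 ± 0.014, adjusted p = 1.51e-04, limma), where 2.44% of all genes rose and 0.892% fell. The mean of Cox6b2, 4.44, lay just above the filter. Along the score of 7 fat cell markers 5 members rose and 0 fell, against 2.65% and 0.187% of all genes. They were Cox6a2 (slope 0.080, adjusted p = 0.00664, limma), Ndufa5, Cox8b, Uqcrfs1 and Cox6b1; the fat and muscle scores correlated at 0.37. The fat count was 9 without animals 63 and 15 and 23 with array medians subtracted. The smooth muscle count was 6 with the mean of a gene's probe sets and 29 without removal of S code means. For these settings the shares of all genes are not given here.

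Members went with RNA integrity in both directions, in shares near those of all genes. The part of RNA integrity in the other results was tested only through the covariate fits given with them. With a larger 3' to 5' difference of the actin control transcript, 47 of 89 members were higher and 14 lower by limma, against 47.7% and 16.9% of all genes. Atp5f1d, the delta subunit of ATP synthase, fell most, by 0.110 ± 0.011 per SD (adjusted p = 3.09e-15). Its levels went from 9.50 through a median of 10.11 to 10.37. Ndufv2, a core subunit of complex I (-0.089), and Sdhb (-0.082) and Sdhc (-0.076) fell too. Atp5mk, a small subunit of ATP synthase (0.094), Sdhaf3 (0.124) and Ndufa2 (0.081) were higher.

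The members correlated with each other more than genes did in general, but no more within a complex than between complexes. Over the 120 animals the median r of the 3916 pairs of members was 0.29, with 3202 pairs (81.8%) above 0, against a median of 0.066 over all pairs of genes. These r share arrays and their quality: without animal 63 the medians were 0.21 and 0.032. For the 738 pairs within complexes I to V the median was 0.36, and for the 1677 pairs between them 0.37. Among complexes I to V, complex III was the most even, with a median of 0.44 and all 21 pairs above 0. The assembly factors were as even, with a median of 0.43 and all 45 pairs above 0. Complex II had a median of -0.07 over its 6 pairs, although Sdhb and Sdhc correlated at 0.83.

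Of the 4 pairs of highest r, 3 joined small subunits of different complexes. Atp5mk and Ndufb3, an accessory subunit of complex I, had the largest r of all pairs (0.87, rho 0.78, between 0.42 and 0.95 within the 10 S codes), and 0.81 with the 3' to 5' differences regressed out. Cox6c and Cox7b of complex IV followed (r = 0.85, rho = 0.73), then Atp5pf and Ndufb3 (r = 0.84, rho = 0.71) and Cox7b and Uqcrh, the hinge protein of complex III (r = 0.84, rho = 0.67). These pairs were picked for their r, which is given as a description with no p. Uqcrh had the highest median r with the other members, 0.53.

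Atp5f1d had the lowest median r with the other members, -0.11, followed by Ndufv2 (-0.08) and Ndufa4l2 (-0.08). The lowest r of all pairs was that of Atp5f1d with Sdhaf3 (-0.61, rho -0.52, below 0 in all 10 S codes), and with the 3' to 5' differences regressed out it was -0.34. The member nearest to Atp5f1d was Sdhb, at 0.82. With those differences regressed out the median r was 0.11 for Atp5f1d and 0.15 for Ndufv2, while for Ndufa4l2 it was -0.01. 

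**Figure D4:**
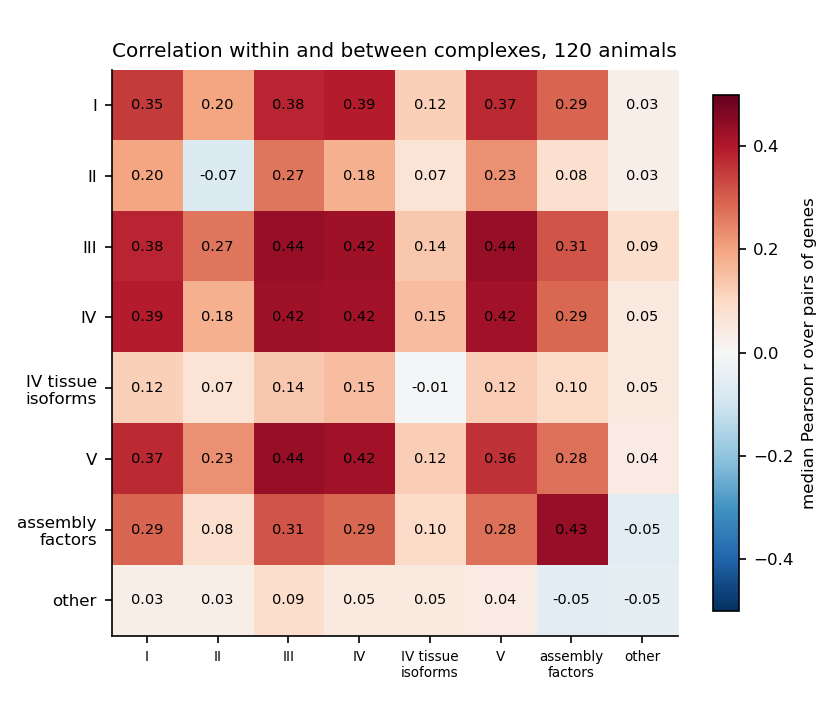
Median Pearson r over pairs of genes within (diagonal) and between classes, 120 animals, S code means removed; both axes list the classes and colour gives r from -0.5 to 0.5. Complexes I, III, IV and V form a block at 0.35 to 0.44, the tissue isoforms reach 0.12 to 0.15 with those complexes and -0.01 among themselves, and the class of other genes lies between -0.05 and 0.09.

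The members' levels were also compared with the 1:2:1 shape that a single locus of large effect can give in an F2 generation. A mixture of 3 normal distributions at those weights was called where it beat the best single distribution by over 10 units of BIC, a measure of fit that charges for each parameter. It was called for 0 of 89 members, against 0.138% of all genes (17 of 12326), so the members' count was near the background. The call was tried on simulated mixtures with well separated levels only, and how often it finds a smaller effect was not tested. Atp5f1d came nearest of the 89 (BIC difference -5.49, against the mixture), followed by Ndufb8, an accessory subunit of complex I (-6.83). For Cox7a1 the difference was -9.002, with fitted levels of 6.06, 6.52 and 6.89.

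Cox7a1 varied together with genes of its own stretch of chromosome 1. Its 10 most correlated genes among all those tested lay on that chromosome, 7 of them within 200 tested genes of it in gene order. Cox7a1 was the only one of the 89 members with at least 5 of its 10 most correlated genes that near, against 3.26% of all genes; at least 2 such genes were held by 10 of 89 members and by 11.3% of all genes, so the members as a whole were near the background. Lgals7, a galectin of stratified epithelia 16 genes away, had r = -0.76 (rho = -0.77, between -0.91 and -0.53 within the 10 S codes). Isoc2b, 211 genes away, had r = 0.70, Nop53, a ribosome assembly factor 175 genes away, r = -0.68, and Rps16, a ribosomal protein 36 genes away, r = -0.67. With the L code means also removed these 4 values were -0.77, 0.69, -0.72 and -0.67, and with the first 5 principal components removed -0.80, 0.81, -0.81 and -0.75.

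The nearness was read in counts as well, at sizes chosen after the values were seen. Of the 600 tested genes within 300 places of Cox7a1, 28 (4.67%) had an r of 0.4 or more in size. None of the other 934 genes of chromosome 1 reached that size, and 2 of 10748 on other chromosomes did (0.0186%). The member nearest to Cox7a1 in pattern was Sdhaf1, an assembly factor of complex II that lies 7 genes away, at r = 0.54, while Cox6b1, 21 genes away, had r = 0.10. Cox6a2 and Cox8b, 560 and 634 genes away on the same chromosome, had genes of striated muscle at the head of their lists: Tnnt3, Eno3 and Tnnc2 for Cox6a2, and Tnni2, Ckmt2 and Tnnt3 for Cox8b. All of these but Ckmt2 are markers in the skeletal muscle score, so their place is no separate result from the slopes on that score. Cox6a2 and Cox8b each also had 3 of their 10 most correlated genes within 200 genes, a number that 5.82% of all genes reached. Tnni2 and Tnnt3 lie on chromosome 1 near Cox8b, 671 and 676 genes from Cox7a1. Genotypes were not used here, so no locus was tested, and Cox7a1 was measured by 1 probe set.

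**Figure D5:**
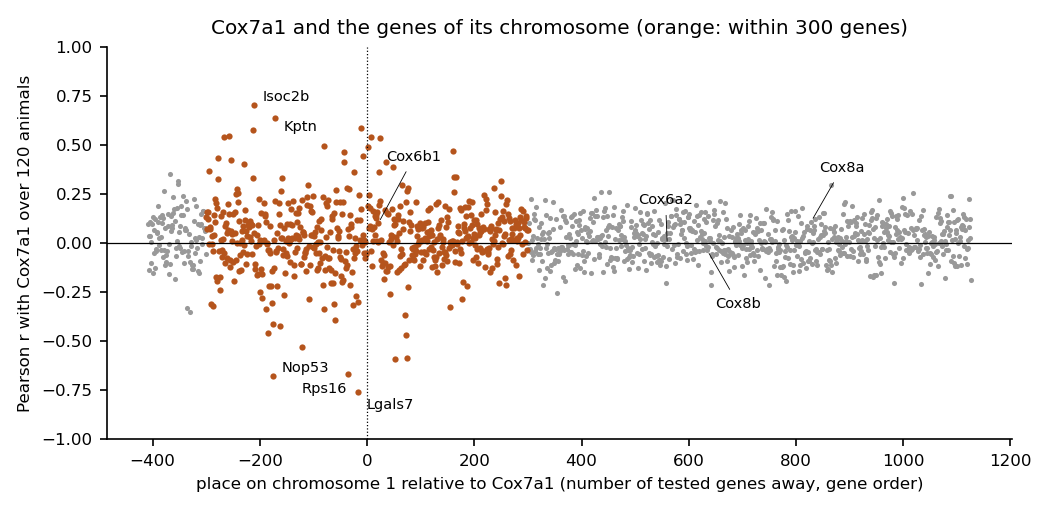
Pearson r with Cox7a1 over 120 animals (vertical axis) of each tested gene of chromosome 1, against its place in gene order relative to Cox7a1 (horizontal axis, number of tested genes away); orange points lie within 300 genes. The largest r in size are in orange, Lgals7 at -0.76 and Isoc2b at 0.70, and none of the grey points reaches 0.4 in size.

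For 10 members several probe sets could be compared. Atp5po, a peripheral stalk subunit of ATP synthase, had the lowest r between probe sets above the filter (-0.38), between 1 probe set with a mean of 10.52 and another of 4.98. Ndufa7 (0.09) and Atp5me (0.14) followed, again with a bright and a dim probe set. Uqcrc2 came next (0.20), although both of its probe sets were bright, with means of 10.45 and 9.285. The brightest second probe set was that of Sdhd, at 9.43 beside 9.88, and these correlated at 0.42.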

How the data were processed

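Expression was measured in eye RNA of 120 F2 rats, 1 Affymetrix array each. The authors deposited 1 table of log2 values for 31099 probe sets, made with RMA per the submitters' processing notes; the build and software version are not given in the sources used here. RMA aims at a common distribution, so a true shift shared by all genes can be hidden. The deposited arrays did not share 1 distribution, however. Their medians ran from 5.78 to 5.96 and their 75th percentiles from 7.11 to 7.71. Such array-wide differences are part of the values, and only the alternative with array medians subtracted adjusted for level. No depth applies to arrays. Probe sets were named by the platform annotation, with symbols updated by gene number. S code means were removed, and 23326 probe sets with a mean of at least 4.28 were tested with limma 3.58.1 (R 4.3.3), Benjamini-Hochberg adjusted over all of them at 0.05. Scores were means of standardised markers. Correlations were tested with 100000 two-sided permutations within S codes, and mixtures by BIC. Tests were tried on simulated data. Gene order and promoters came from RefSeq, GRCr8; proteins were not analysed here. Named genes were the complex IV, Atp5mc and Ndufa4 isoforms, the extremes of SD and correlation, the largest statistics of each test, the lowest agreement between probe sets and those beside the filter. Members, lists and tests were chosen with earlier results of these data known. Alternatives were no S code removal, no filter, arrays left out, array medians, integrity covariates, probe set means, a threshold of 0.01 and joint scores; leaving out animal 63 alone and the neighbour counts were chosen after seeing the data.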

Additional observations from a re-analysis of the deposited data

How the results depend on the processing

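The isoform differences kept their direction and their call under all 8 alternatives run for each pair, with r between 0.71 and 0.82 for Cox6a2 minus Cox6a1 and between 0.65 and 0.80 for Cox8b minus Cox8a. The counts for the S code test (80 to 88), the actin 3' to 5' difference (52 to 68) and the mixture (0 throughout) stayed within 1.5 times, and the median correlation lay between 0.21 and 0.30. The median SD was 0.126 without removal of S code means. The muscle count was 31 without the rescanned arrays, which include that of animal 63, and likewise 31 without animal 63 alone, and 32 without animals 63 and 15. The rod count of 21 was 42 without S code removal, 40 without the rescanned arrays, 37 without animals 63 and 15, 37 with the mean of a gene's probe sets, 9 with array medians subtracted, 6 with integrity covariates and 8 at an adjusted p of 0.01. The smooth muscle count of 1 was 29 without S code removal, 6 with probe set means and 2 with array medians subtracted or without animals 63 and 15. The fat count of 5 was 8 without S code removal, 9 without animals 63 and 15, 23 with array medians subtracted, 3 with integrity covariates and 1 at 0.01. The L code count was 5 without S code removal. The cause of these shifts was not tested. Apart from the fit without animal 63, shares of all genes are not given for these settings, so the shifted counts cannot be set against a background. No paired analysis was possible because the labels give 1 group with 1 array per animal. Probe sets shared by several genes, and dim ones such as that of Cox5a, limit what can be read for their genes.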
